A study of Mus musculus with 20 samples.

Results

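The NRF2 antioxidant and iron genes described here were 10 mouse genes chosen by symbol: Hmox1, Fth1, Ftl1, Osgin1, Slc7a11, Gclm, Gclc, Txnrd1, Srxn1 and Nqo1. All 10 matched an Entrez gene ID among the 23090 genes in the deposited count tables. They were measured in poly-A RNA of myeloid cells sorted from tumours, as 20 libraries in 4 groups of 5: granulocytic cells (gMDSC) given the inhibitor CBPi-781, gMDSC given vehicle, monocytic cells (mMDSC) given CBPi-781 and mMDSC given vehicle.

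MDSC stands for myeloid-derived suppressor cell, a name for neutrophil-like and monocyte-like cells of tumours that dampen T cell responses. Per the labels, all groups came from female SCID.beige mice of 6 to 8 weeks, a strain without T, B and functional NK cells, that carried subcutaneous tumours grown from injected cells of MDA.MB.231-X1.1 (human breast cancer) or CT26 (mouse colon carcinoma). The tumour line of each library is not stated, so line and treatment cannot be told apart. CBPi-781 is GNE-781, which blocks the acetyl-lysine-binding bromodomains of the coactivators CBP and EP300. It was given BID by oral gavage at 25 mg/kg for 7 days, against the vehicle MCT, once tumours averaged 150 to 200 mm3. Both populations were gated as CD45+, CD11b+, Ly6C+ and F4/80-, with Ly6G+ for gMDSC and Ly6G- for mMDSC. The comparisons ask what CBPi did to these genes in each population, whether the populations differed in that response, and how gMDSC and mMDSC differed with and without CBPi.

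NRF2, encoded by Nfe2l2, is a transcription factor that KEAP1 holds in the cytoplasm and marks for degradation. Oxidants and electrophiles release it, and it then pairs with a small MAF protein (Mafg, Maff, Mafk) at antioxidant response elements, where the repressor BACH1 competes with it until haem removes BACH1. NRF2 recruits CBP and EP300 as coactivators. Its targets make glutathione, reduce thioredoxin and quinones, break down haem and store the iron that haem releases, and tumour myeloid cells use them to withstand their own oxidants. Ferritin and the transferrin receptor are also set after transcription by iron regulatory proteins, which RNA levels only partly show.

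A core antioxidant response element, TGACNNNGC on either strand, was searched in RefSeq promoter windows (build GRCm38.p6, 250 bases before to 50 after the start of transcription). Entries existed for 8 of the 10 members, all but Hmox1 and Gclc. The motif occurred in 3 of the 8, against 3781 of all 27025 genes in the table (14.0%). The stretches around these matches are shown because they are the only ones among the members' 11 windows. Each is read 5′ to 3′ on the minus strand, opposite to the gene, with the motif in capitals.
Gclm: gtgagagtTGACGGTGCgcccggga
Txnrd1: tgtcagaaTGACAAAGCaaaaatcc
Srxn1: tctcactcTGACCTAGCtgcccact
The Gclm stretch lies at chr3:122245415-122245439, with its motif 134 to 126 bases before the start. The Txnrd1 stretch lies at chr10:82859106-82859130, in 1 of several windows of that gene, with its motif 92 to 84 bases before the start. The Srxn1 stretch lies at chr2:152105544-152105568, with its motif 28 to 36 bases after the start. These are matches of letters and not measured binding sites.

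Library totals ran from 12372630 to 26635889 counts, and 4 of the 5 gMDSC vehicle libraries were among the shallowest, at 12372630 to 14101722 counts. The gMDSC libraries carried neutrophil markers, with 12 marker genes summing to 14600 to 24600 CPM (library-size-scaled counts) under CBPi and 13600 to 43800 CPM with vehicle, against 661 to 827 CPM in mMDSC under CBPi and 682 to 958 CPM in mMDSC with vehicle. Despite the F4/80- gate, Adgre1, the gene of F4/80, was at 581 to 966 CPM in gMDSC under CBPi and 615 to 1530 CPM in gMDSC with vehicle, and at 438 to 651 CPM and 739 to 964 CPM in mMDSC under CBPi and with vehicle. Ly6g, the gene of the granulocytic gate's marker, was low, at 0.531 to 2.13 CPM in gMDSC under CBPi and 0.442 to 9.03 CPM in gMDSC with vehicle. The gMDSC vehicle library 3 stood apart, with a mean correlation of 0.858 to the other libraries of its group, the highest neutrophil marker sum of its group, 43800 CPM, and the highest macrophage marker sum, 77500 CPM. Apoe made up 54500 CPM of the macrophage sum. In that library Apoe was at its highest of the group, as were C1qa (5500 CPM), C1qb (7540), C1qc (5220), Ms4a7 (2180), Cd68 (1360), Trem2 (361) and Gpnmb (13.4). Adgre1 (615 CPM), Vcam1 (120), Mertk (6.91) and Spic (0.747) were at their lowest of the group there, and Mrc1 (85.0) lay between. In bulk samples, fewer cells of a type and less RNA per cell cannot be told apart.

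Per length, on the authors' RPKM scale, Fth1 was the most abundant member in every group, and Ftl1 came next. Fth1, the heavy chain of ferritin that oxidises iron for storage, had a median of 16800 RPKM in gMDSC under CBPi, 16600 in gMDSC with vehicle, 8520 in mMDSC under CBPi and 11000 in mMDSC with vehicle. It was the highest of all 17289 ranked genes in both gMDSC groups and took 0.673% to 2.66% of all counts of a library. Ftl1, the ferritin light chain, had medians of 606 to 696 RPKM over the 4 groups. Nqo1, a quinone reductase and a widely used readout of NRF2 in other tissues, was lowest in all 4 groups, at 0.0354 to 0.691 RPKM. Counts of both ferritin chains may include reads of processed copies, or may miss reads that such copies share. How shared reads were counted is not stated, so the levels of Fth1 and Ftl1 beside other genes and each other carry this limit in either direction. Of the related genes looked up, Ftl1-ps2 and Fthl17a to Fthl17f, only Ftl1-ps2 had counts, 190 over all libraries, against 243935 for Ftl1. Other copies were not searched for.

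The order between those ends differed between the populations. In gMDSC under CBPi it ran Hmox1 (427 RPKM), Osgin1 (200), Slc7a11 (61.5), Txnrd1 (24.3), Gclm (14.1), Gclc (10.8) and Srxn1 (6.78), and with vehicle Osgin1 (152) came before Hmox1 (127). In mMDSC with vehicle, Hmox1 (239 RPKM) and Txnrd1 (29.0) led, while Slc7a11 (9.91), Osgin1 (9.78), Srxn1 (9.22) and Gclc (8.34) had overlapping ranges. The ranges of neighbours in the order also overlapped for Ftl1, Hmox1 and Osgin1 and for Gclm, Gclc and Srxn1 in gMDSC under CBPi, and for Osgin1, Hmox1 and Slc7a11 and for Gclc and Srxn1 in gMDSC with vehicle. In mMDSC under CBPi each neighbouring pair from Txnrd1 (38.9 RPKM) through Gclm, Gclc, Srxn1 and Slc7a11 to Osgin1 (6.18) overlapped.

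**Figure D1:**
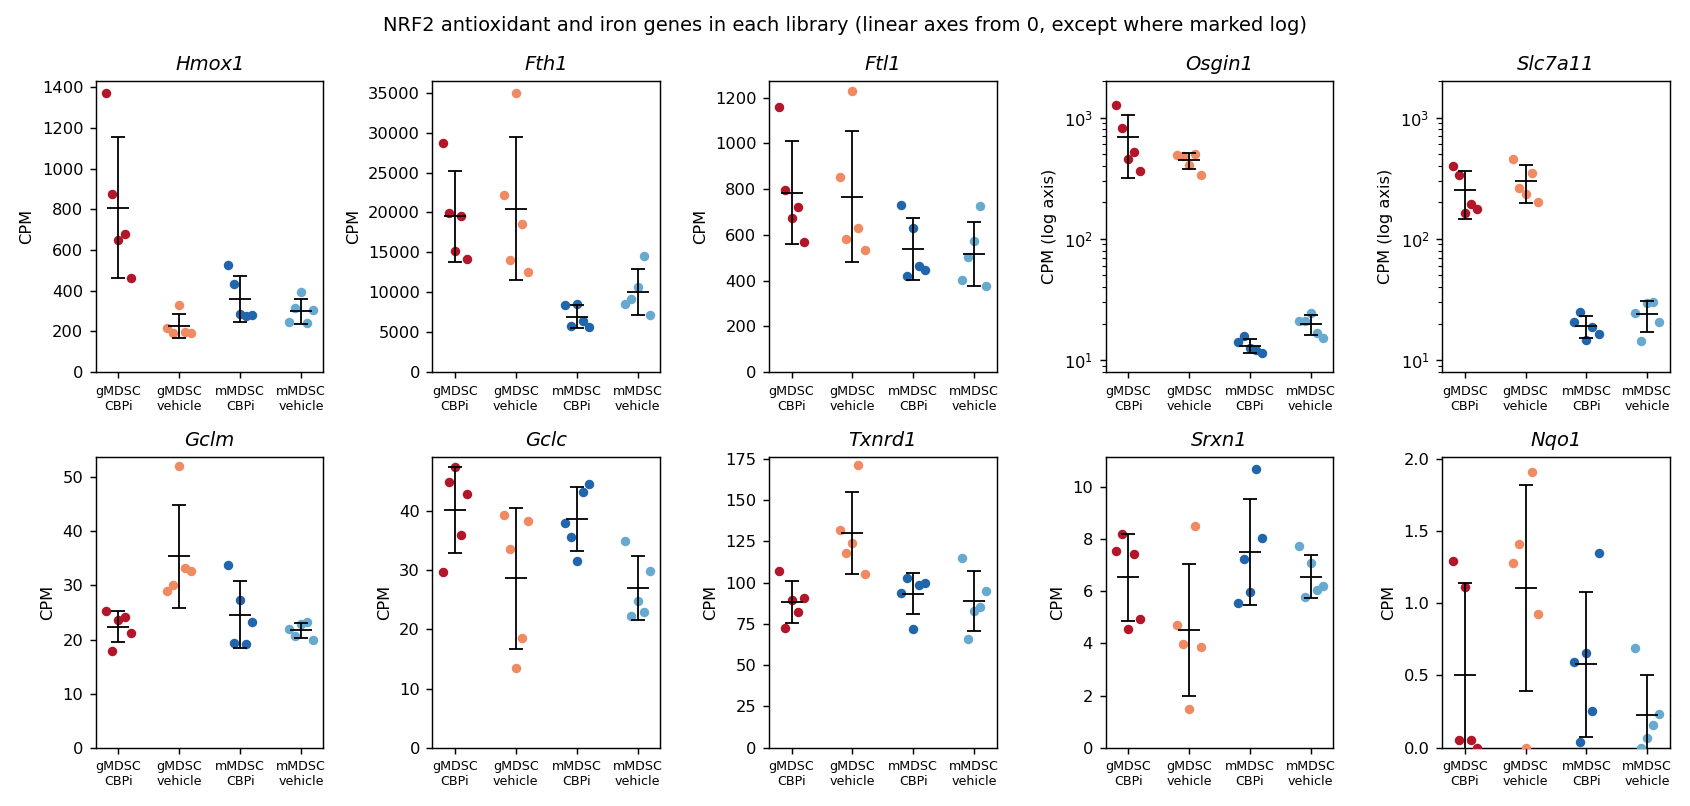
Each panel plots 1 gene in CPM, with a point per library, the mean as a line and bars of 1 SD (n = 5 a group). Osgin1 and Slc7a11 are on log axes. All gMDSC CBPi libraries of Hmox1 (461 to 1370 CPM) lie above all gMDSC vehicle libraries (192 to 330 CPM), and Osgin1 and Slc7a11 separate gMDSC from mMDSC.

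In gMDSC, Hmox1 rose under CBPi and no other member passed the threshold. Hmox1 encodes haem oxygenase-1, which splits haem into iron, carbon monoxide and biliverdin, and lies at chr8:75093618-75100593 (GRCm38.p6). In CBPi libraries 6 to 10 it had 1370, 876, 651, 680 and 461 CPM, against 215, 193, 330, 196 and 192 CPM in vehicle libraries 1 to 5. Every CBPi library was above every vehicle library, and CBPi library 6 was the highest. Hmox1 averaged 808 ± 348 CPM in gMDSC under CBPi and 225 ± 59.3 CPM with vehicle (SD, n = 5 each), a log2 fold change of 1.86 ± 0.28 (SE) or 3.62-fold, with an adjusted p of 0.00152. This and every other adjusted p comes from the quasi-likelihood test of edgeR, adjusted by Benjamini and Hochberg's method over all genes tested, unless another tool is named. It ranked 103 by p among 11694 genes tested. Of those genes 9.71% passed in either direction, 4.18% higher and 5.52% lower, so the 1 of 10 members that passed is close to that background. The change kept its call under all 18 alternatives, with log2 values of 1.42 to 2.03 and adjusted p up to 0.00801. The lowest value came without CBPi libraries 6 and 7, a setting chosen after seeing the data.

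The ferritin chains, which store the iron that haem oxygenase frees, did not pass in gMDSC. Fth1 had 28700, 19900, 15200, 19600 and 14200 CPM in CBPi libraries 6 to 10, against 22200, 14100, 35000, 18500 and 12500 CPM in vehicle libraries 1 to 5. The groups overlapped fully, with a log2 difference of -0.05 ± 0.28 (adjusted p = 0.933). Ftl1 gave 0.05 ± 0.25 (adjusted p = 0.928). Without vehicle library 3, which had the highest level of both, the 2 values were 0.22 and 0.28.

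Osgin1, an NRF2 target linked to growth arrest and oxidative stress, lies at chr8:119425882-119446257. It had 1270, 816, 454, 525 and 364 CPM in gMDSC CBPi libraries 6 to 10, against 488, 485, 406, 503 and 339 CPM in vehicle libraries 1 to 5. CBPi libraries 6, 7 and 9 were above all vehicle libraries and the others lay among them. The log2 difference was 0.64 ± 0.30 (adjusted p = 0.191), and 0.03 (adjusted p = 0.956) without CBPi libraries 6 and 7.

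Of the genes for cystine uptake and glutathione synthesis, none passed in gMDSC. Gclm, the modifier subunit of glutamate-cysteine ligase, had 25.2, 17.9, 23.6, 24.1 and 21.2 CPM in CBPi libraries 6 to 10, against 28.9, 30.0, 52.1, 33.3 and 32.6 CPM in vehicle libraries 1 to 5. The groups did not overlap, and the log2 difference was -0.65 ± 0.21 (adjusted p = 0.0682). DESeq2 and the fit over all 20 libraries put Gclm past the threshold (adjusted p from 0.0171 to 0.264 over the alternatives). Gclc, the catalytic subunit of the same enzyme, was at 0.51 ± 0.29 (adjusted p = 0.293), with 29.7 to 47.5 CPM under CBPi and 13.5 to 39.3 CPM with vehicle, so the point estimates of the 2 subunits had opposite signs. Slc7a11, the cystine importer of system xc-, was at -0.22 ± 0.29 (adjusted p = 0.677) and ranged over 163 to 402 CPM under CBPi and 200 to 455 CPM with vehicle. Without overlap between groups were 12.1% of all genes tested and 2 of the 10 members, Hmox1 and Gclm.

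Txnrd1, thioredoxin reductase 1, lay near the threshold in gMDSC. It had 107, 72.7, 89.5, 82.0 and 90.7 CPM in CBPi libraries 6 to 10, against 132, 118, 124, 171 and 105 CPM in vehicle libraries 1 to 5. Only CBPi library 6 reached the range of the vehicle libraries, and the log2 difference was -0.54 ± 0.17 (adjusted p = 0.0571). It passed with DESeq2, with the fit over all 20 libraries, and without vehicle library 3, 5 or both (adjusted p from 0.0178 to 0.165 over the alternatives). Srxn1, sulfiredoxin, which repairs overoxidised peroxiredoxins, was at 0.55 ± 0.43 (adjusted p = 0.456) on 16 to 152 counts a library. Nqo1 had 20, 1, 22, 1 and 0 counts in CBPi libraries 6 to 10, against 13, 17, 0, 22 and 21 counts in vehicle libraries 1 to 5. No change was detected at these low counts (adjusted p = 0.582). If a count of 0 is taken to allow up to 3 counts, the limit is 0.145 CPM in CBPi library 10 and 0.280 CPM in vehicle library 3. That limit leaves out the spread between libraries.

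Over the 10 members the median log2 difference in gMDSC was 0.00, as over all genes tested. Library 6 was the highest CBPi library for 7 of the 8 members above 10 CPM (all but Srxn1 and Nqo1), and vehicle library 3 the highest vehicle library for 4 of them. These 2 libraries had the lowest scaling factors of their groups, 0.74 and 0.76, and a low factor raises every CPM of a library. The part of this scaling in the order of libraries was not tested.

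**Figure D2:**
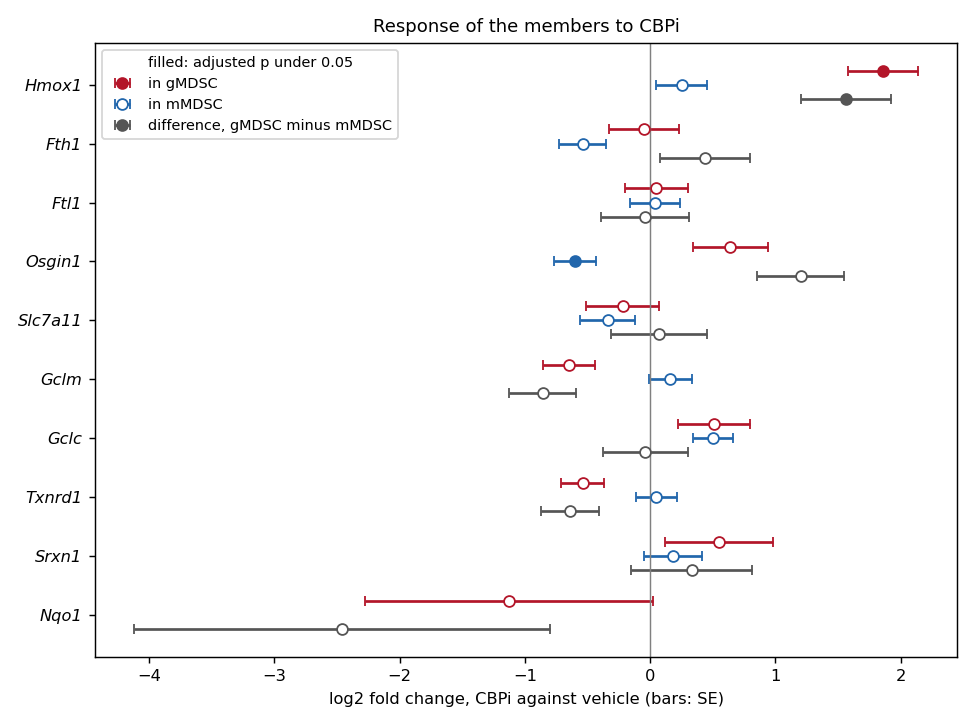
Points are log2 fold changes of CBPi against vehicle with bars of 1 SE, in gMDSC and in mMDSC, and the difference between these 2 responses. Filled points passed at adjusted p under 0.05: Hmox1 in gMDSC (1.86), Osgin1 in mMDSC (-0.60) and the difference for Hmox1 (1.56).

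In mMDSC, Osgin1 was the only member past the threshold and it fell under CBPi. It had 14.1, 15.7, 12.6, 12.2 and 11.4 CPM in CBPi libraries 6 to 10, against 21.1, 21.2, 24.5, 16.8 and 15.4 CPM in vehicle libraries 1 to 5. Only vehicle library 5 lay within the range of the CBPi libraries. Osgin1 averaged 13.2 ± 1.71 CPM under CBPi and 19.8 ± 3.66 CPM with vehicle (SD, n = 5 each), a log2 fold change of -0.60 ± 0.17 (adjusted p = 0.0465). Of 11912 genes tested, 8.56% passed in either direction, 3.02% higher and 5.54% lower, so 1 of 9 tested members is close to the background. The call ended under 11 of 16 alternatives, among them limma-voom, no filter on low counts, no scaling factor, the fit over all 20 libraries and the removal of CBPi library 6, 8, 9 or 10 or of vehicle library 1, 2 or 3, with adjusted p up to 0.224 and log2 values between -0.68 and -0.48.

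Hmox1 did not pass in mMDSC. It had 524, 434, 284, 275 and 280 CPM in CBPi libraries 6 to 10, against 245, 313, 391, 239 and 303 CPM in vehicle libraries 1 to 5. CBPi libraries 6 and 7 were above every vehicle library and the others within their range, with a log2 difference of 0.25 ± 0.20 (adjusted p = 0.514). Fth1 had 8440, 5720, 8560, 6450 and 5610 CPM under CBPi, against 8530, 9110, 10700, 14600 and 7130 CPM with vehicle. Its log2 difference was -0.54 ± 0.19 (adjusted p = 0.0967), and Ftl1, which followed Fth1 closely between libraries of a group (r = 0.97 over 20 libraries, after taking out group means), was at 0.04 ± 0.20 (adjusted p = 0.934). The 2 ferritin chains thus had point estimates of different size in mMDSC, a contrast that was not tested.

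The glutathione and thioredoxin members did not pass in mMDSC either. Gclc had 38.0, 35.6, 31.6, 43.3 and 44.6 CPM under CBPi, against 35.0, 22.2, 24.8, 22.9 and 29.8 CPM with vehicle, and only vehicle library 1 lay within the CBPi range. Its log2 difference was 0.50 ± 0.16 (adjusted p = 0.0846), and it passed with DESeq2, which also called Osgin1 and Fth1, with no scaling factor and without vehicle library 1 (adjusted p from 0.0363 to 0.286 over the alternatives). Gclm was at 0.16 ± 0.17, Slc7a11 at -0.34 ± 0.22, Txnrd1 at 0.05 ± 0.16 and Srxn1 at 0.18 ± 0.23, with adjusted p from 0.411 to 0.890. Nqo1, with 0 to 43 counts a library in mMDSC, missed the filter on low counts and was not tested there. No member was without overlap between the groups, against 9.80% of all genes tested. The median over the 9 tested members was 0.05, against 0.01 over all genes.

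The response of Hmox1 to CBPi was larger in gMDSC than in mMDSC by 1.56 ± 0.36 on the log2 scale (adjusted p = 0.0443, interaction over 20 libraries), and it was the only member past the threshold. Of 12688 genes, 0.725% passed in either direction. The direction held in all 28 alternatives (1.12 to 1.80), but 14 of them ended the call, among them limma-voom (adjusted p = 0.0506) and the removal of CBPi library 6 of gMDSC (1.28, adjusted p = 0.0804). Osgin1, at 0.64 in gMDSC and -0.60 in mMDSC, differed by 1.20 ± 0.35 (adjusted p = 0.140), and only DESeq2 called it (adjusted p = 0.0422). Gclm differed by -0.86 ± 0.27 (adjusted p = 0.180) and Txnrd1 by -0.64 ± 0.23 (adjusted p = 0.254). The other 6 members had adjusted p from 0.620 to 0.976.

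With vehicle, 5 members were higher in gMDSC than in mMDSC and none was lower in the fit of all 10 libraries. Osgin1 averaged 444 ± 70.1 CPM in gMDSC and 19.8 ± 3.66 CPM in mMDSC (SD, n = 5 each), a 23.1-fold difference (log2 4.53 ± 0.19, adjusted p = 1.59e-08), the 5th smallest p of 11576 genes. Slc7a11, at chr3:50364936-50499087, had 455, 263, 234, 351 and 200 CPM in gMDSC vehicle libraries 1 to 5, against 24.3, 14.3, 29.8, 30.4 and 20.7 CPM in mMDSC vehicle libraries 1 to 5. That is 12.8-fold (log2 3.68 ± 0.28, adjusted p = 1.44e-06), and neither gene's groups overlapped. Fth1 was 2.09-fold higher (log2 1.06 ± 0.28, adjusted p = 0.0170), Gclm 1.67-fold (0.74 ± 0.20, adjusted p = 0.0179) and Txnrd1 1.5-fold (0.58 ± 0.18, adjusted p = 0.0343, a call that 9 of 18 alternatives ended). The Gclm call ended with no scaling factor and when libraries of the same number were blocked together. Hmox1 was at -0.37 ± 0.19 (adjusted p = 0.210), and it passed as lower without gMDSC vehicle library 3 (-0.56, adjusted p = 0.0213) and without vehicle libraries 3 and 5 (-0.53, adjusted p = 0.0492). Without library 3, where Nqo1 had 0 counts, Nqo1 passed as higher (2.57, adjusted p = 0.0498), and all genes called lower numbered 1521, against 935. Ftl1 was at 0.60 ± 0.25 (adjusted p = 0.120), and Gclc, Srxn1 and Nqo1 had adjusted p from 0.149 to 0.808. Among all genes 21.7% passed, 13.6% higher and 8.08% lower.

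Under CBPi, Osgin1, Slc7a11, Fth1, Hmox1 and Ftl1 were higher in gMDSC than in mMDSC, and none was lower, with the scaling used. Osgin1 was 54.1-fold higher (log2 5.76 ± 0.34, adjusted p = 6.86e-08) and Slc7a11 13.8-fold (3.79 ± 0.28, adjusted p = 3.53e-07). Fth1 was 2.92-fold higher (1.55 ± 0.20, adjusted p = 4.85e-05) and Hmox1 2.34-fold (1.23 ± 0.27, adjusted p = 0.00331). Ftl1 was 1.52-fold higher (0.60 ± 0.20, adjusted p = 0.0314), and 8 of 18 alternatives ended that call. Gclm (-0.08 ± 0.19) and Txnrd1 (-0.02 ± 0.14), which passed with vehicle, had adjusted p of 0.788 and 0.933 here. The background was 39.2%, with 20.1% higher and 19.1% lower. Members without overlap between the populations were Osgin1, Slc7a11 and Gclm with vehicle, against 20.2% of all genes, and Osgin1, Slc7a11 and Fth1 under CBPi, against 30.2%.

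These population differences carry a choice of scale. Without a scaling factor the median log2 difference of all genes moved to -0.43 with vehicle and to -0.53 under CBPi, and the split of called genes changed to 1009 higher and 2714 lower with vehicle, against 1579 and 935, and to 1300 and 5056 under CBPi, against 2396 and 2270. On that scale Osgin1, Slc7a11 and Fth1 kept their calls in both comparisons, while Gclm and Txnrd1 with vehicle and Ftl1 under CBPi lost theirs, and calls in the other direction appeared for Hmox1 with vehicle (-0.77, adjusted p = 0.00578) and for Gclm (-0.56, adjusted p = 0.0336) and Txnrd1 (-0.51, adjusted p = 0.00926) under CBPi. This setting was chosen after seeing the data. Within mMDSC the same setting moved the median for CBPi against vehicle to 0.13 and the split to 693 higher and 486 lower, against 360 and 660, and in the difference of responses it moved the median to -0.11 and the split to 60 and 46, against 63 and 29. The comparisons share libraries with one another, so they are not independent of each other.

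**Figure D3:**
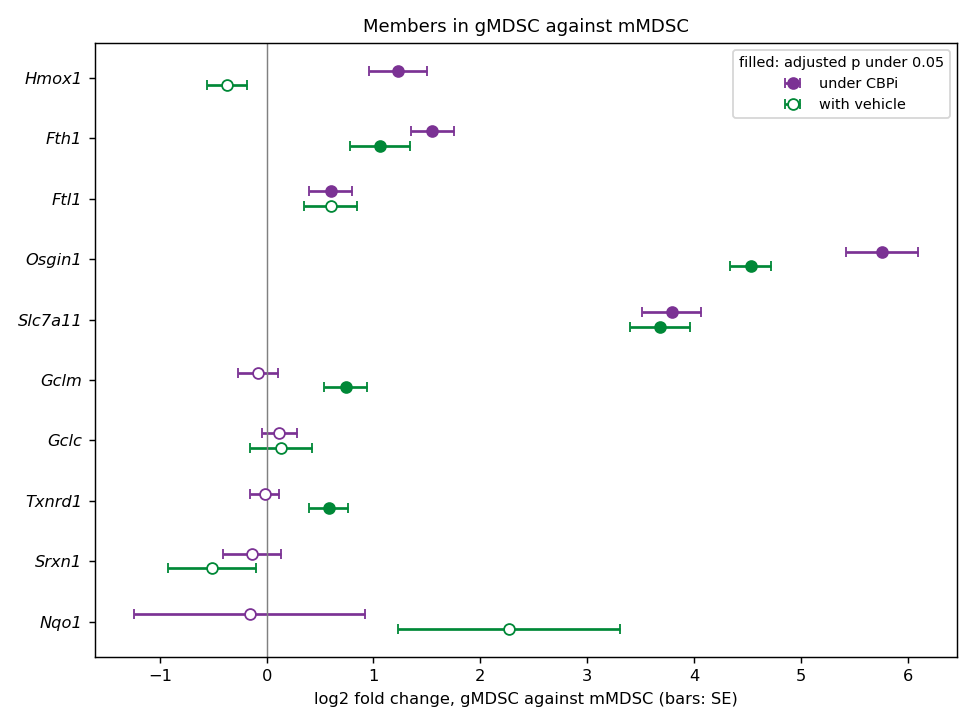
Points are log2 fold changes of gMDSC against mMDSC with bars of 1 SE, under CBPi and with vehicle, and filled points passed at adjusted p under 0.05. Osgin1 (5.76 and 4.53) and Slc7a11 (3.79 and 3.68) lie far to the right of the other members, and Hmox1 lies at 1.23 under CBPi and at -0.37 with vehicle.

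The regulators of NRF2 were measured alongside, as a list of 12 genes. In gMDSC under CBPi 1 of 12 rose and none fell, close to the 9.71% of all genes called. Mafk, a small MAF partner, had 197, 134, 99.5, 61.4 and 68.1 CPM in CBPi libraries 6 to 10, against 49.7, 56.6, 50.2, 54.7 and 62.9 CPM in vehicle libraries 1 to 5, a log2 change of 1.04 ± 0.28 (adjusted p = 0.0357) that 9 of 18 alternatives ended and that was 0.50 (adjusted p = 0.259) without CBPi libraries 6 and 7. Nfe2l2, NRF2 itself, was at -0.25 ± 0.15 (adjusted p = 0.309), Keap1 at -0.17 ± 0.16, Bach1 at -0.13 ± 0.19, Mafg at -0.57 ± 0.26 and Maff at 0.35 ± 0.25, with adjusted p from 0.178 to 0.716. In mMDSC, Nfe2l2 was the 1 of 12 that passed, close to the 8.56% of all genes called. It had 403, 397, 502, 456 and 469 CPM in CBPi libraries 6 to 10, against 629, 563, 590, 723 and 468 CPM in vehicle libraries 1 to 5, and fell by 0.44 on the log2 scale (SE 0.12, adjusted p = 0.0454), a call that 11 of 16 alternatives ended. Keap1 (-0.10 ± 0.14), Bach1 (-0.41 ± 0.15), Mafg (-0.28 ± 0.14), Maff (0.27 ± 0.18) and Mafk (-0.12 ± 0.19) did not pass. In the difference of responses none of the 12 passed, Mafk being at 1.12 ± 0.35 (adjusted p = 0.180).

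Between the populations 3 of 12 regulators were higher in gMDSC with vehicle and none was lower, against 13.6% and 8.08% of all genes. They were Sqstm1, whose protein p62 pulls KEAP1 away from NRF2 (1.12 ± 0.13, adjusted p = 6.13e-05), Maff (1.54 ± 0.24, adjusted p = 0.000465) and Mafk (0.53 ± 0.18, adjusted p = 0.0482, a call that 14 of 18 alternatives ended). Nfe2l2 was at 0.42 ± 0.15 (adjusted p = 0.0744). Under CBPi 5 were higher and 4 lower, against 20.1% and 19.1% of all genes. Maff (1.61 ± 0.21, adjusted p = 5.54e-05), Sqstm1 (0.96 ± 0.14, adjusted p = 0.000110), Mafk (1.68 ± 0.29, adjusted p = 0.000491), Cul3, the scaffold of the ligase that degrades NRF2 (0.71 ± 0.13, adjusted p = 0.00100), and Nfe2l2 (0.59 ± 0.12, adjusted p = 0.00176) were higher in gMDSC, and Keap1 (-0.45 ± 0.12, adjusted p = 0.0104) was lower, as were Rbx1, Trim16 and Bach2, named after their values were seen. Without a scaling factor Nfe2l2 was at 0.10 (adjusted p = 0.455).

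The genes of iron and haem handling formed a list of 35 further genes. In gMDSC under CBPi 2 of 32 tested rose and 1 fell, close to the 9.71% of all genes called, with a median of -0.01, against 0.00 over all genes. Tfrc, the transferrin receptor that imports iron, had 41.0, 13.7, 26.5, 15.2 and 20.2 CPM in CBPi libraries 6 to 10, against 1.86, 7.40, 1.68, 7.90 and 8.13 CPM in vehicle libraries 1 to 5. No CBPi library overlapped a vehicle library, and the log2 change was 2.10 ± 0.49 (adjusted p = 0.0187). The call ended without CBPi library 6 (1.81, adjusted p = 0.0549) and without CBPi libraries 6 and 7 (1.94, adjusted p = 0.1). Flvcr1, a haem exporter, rose (1.47 ± 0.42, adjusted p = 0.0455) and Hp, haptoglobin, which binds free haemoglobin and is stored in neutrophil granules, fell (-1.44 ± 0.28, adjusted p = 0.00679). In neither gene did the groups overlap. Vehicle library 3 had the lowest Flvcr1 of its group, 2.61 CPM against 15.7 to 21.4 CPM in the others. It also had the highest Hp, 2540 CPM against 732 to 1530 CPM. Slc40a1, the iron exporter ferroportin, was at 0.39 ± 0.26 (adjusted p = 0.376).

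In mMDSC 2 of 32 iron and haem genes rose and 3 fell, against 8.56% of all genes called, with a median of -0.01. Steap3, a ferric reductase (-1.49 ± 0.21, adjusted p = 0.000835), Hfe, a regulator of transferrin-bound iron sensing (-0.87 ± 0.13, adjusted p = 0.00132), and Hp (-0.89 ± 0.19, adjusted p = 0.0110) fell, and Mt2, a metallothionein (1.74 ± 0.46, adjusted p = 0.0356), and Steap4 (1.32 ± 0.36, adjusted p = 0.0410) rose. Tfrc was at -0.28 ± 0.28 (adjusted p = 0.617) and Slc40a1 at 0.56 ± 0.45 (adjusted p = 0.516). The difference between the Tfrc responses was 2.35 ± 0.58 (adjusted p = 0.0578), and none of the 32 passed in that test.

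Between the populations the iron genes moved in both directions. With vehicle 9 of 32 were higher in gMDSC and 5 lower, against 13.6% and 8.08% of all genes, and under CBPi 13 were higher and 10 lower, against 20.1% and 19.1%. Slc40a1 averaged 387 ± 115 CPM in gMDSC under CBPi and 19.0 ± 6.88 CPM in mMDSC under CBPi (SD, n = 5 each), a log2 difference of 4.41 ± 0.28 (adjusted p = 1.02e-07), and with vehicle 4.60 ± 0.51 (adjusted p = 3.24e-05). Steap4 (6.97 ± 0.41 with vehicle, adjusted p = 1.92e-07) and Lcn2, lipocalin 2, which binds bacterial siderophores (5.89 ± 0.43, adjusted p = 9.88e-07), were also higher, as was Cp, ceruloplasmin (2.43 ± 0.32, adjusted p = 0.000112). Under CBPi, Steap4 (5.62 ± 0.20), Lcn2 (5.94 ± 0.47) and Hp (1.54 ± 0.14) led with Slc40a1, each with an adjusted p of at most 2.16e-06. Tfrc was higher in gMDSC under CBPi (1.93 ± 0.31, adjusted p = 0.000353) and at -0.45 ± 0.49 with vehicle (adjusted p = 0.578).

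**Figure D4:**
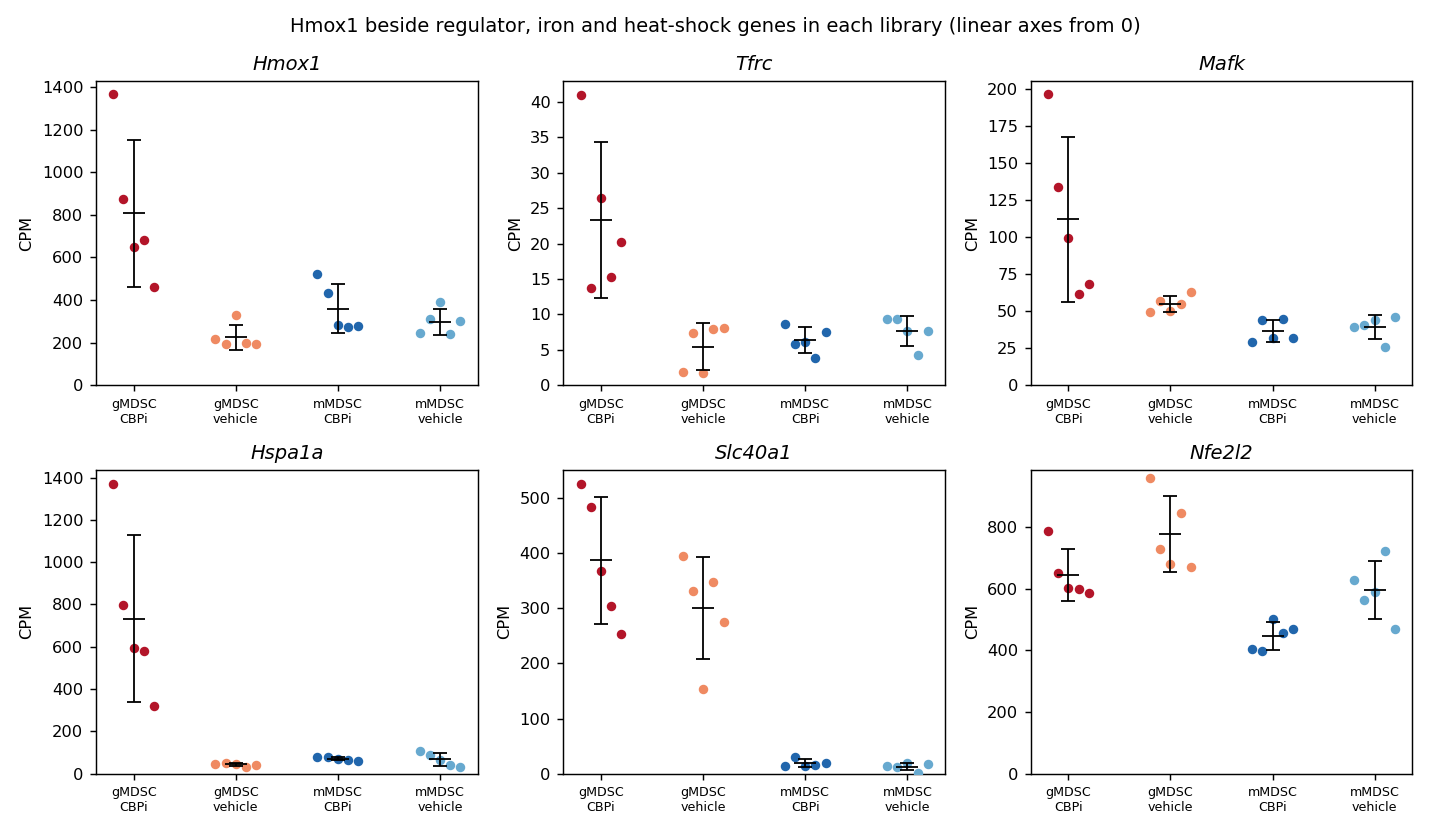
Panels plot Hmox1, Tfrc, Mafk, Hspa1a, Slc40a1 and Nfe2l2 in CPM, with a point per library, the mean as a line and bars of 1 SD (n = 5 a group). In gMDSC, CBPi library 6 is the highest CBPi library in all 6 panels, and Hmox1, Tfrc and Hspa1a do not overlap between CBPi and vehicle.

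In the other redox lists, calls under CBPi were mostly of lower genes in gMDSC. The counts stand against 9.71% of all genes called in gMDSC (4.18% higher, 5.52% lower) and 8.56% in mMDSC (3.02% higher, 5.54% lower). The list medians in gMDSC were -0.58 for thioredoxin and peroxide, -0.44 for NADPH, -0.34 for detoxification and 0.06 for glutathione genes, against 0.00 over all genes. In mMDSC they were -0.24, -0.18, 0.01 and -0.03, against 0.01. Of the thioredoxin and peroxide genes none of 19 tested passed in mMDSC, while in gMDSC 3 of 18 fell and none rose. They were Prdx1, a peroxiredoxin and NRF2 target (-0.78 ± 0.20, adjusted p = 0.0254), Msrb1, a methionine sulfoxide reductase (-1.07 ± 0.27, adjusted p = 0.0261), and Park7 (-0.85 ± 0.24, adjusted p = 0.0448). Of the glutathione genes 1 of 18 rose in gMDSC, the conjugate exporter Abcc1 (1.23 ± 0.35, adjusted p = 0.0446), and 1 of 19 fell in mMDSC, Mgst1 (-0.63 ± 0.18, adjusted p = 0.0433). Of the genes listed for the supply of the reductant NADPH, 2 of 8 fell in gMDSC. They were Taldo1 (-0.90 ± 0.22, adjusted p = 0.0215) and Pgls (-0.83 ± 0.25, adjusted p = 0.0499) of the pentose phosphate pathway. G6pdx (-0.43 ± 0.15, adjusted p = 0.0814) and Pgd (-0.44 ± 0.14, adjusted p = 0.0566) of the same pathway did not pass. In mMDSC Taldo1 alone fell (-0.41 ± 0.11, adjusted p = 0.0358). Of the detoxification genes, Aldh2, mitochondrial aldehyde dehydrogenase, fell in gMDSC (-1.31 ± 0.16, adjusted p = 0.000399) and in mMDSC (-0.40 ± 0.10, adjusted p = 0.0245), with a difference of -0.95 ± 0.18 between the responses (adjusted p = 0.0161). In gMDSC Akr1b3 (-0.79 ± 0.23, adjusted p = 0.0446) also fell and Ugdh (0.67 ± 0.16, adjusted p = 0.0189) rose, making 1 higher and 2 lower of 13. Prdx1, Msrb1, Park7, Taldo1, Pgls, Aldh2 and Akr1b3 each had their highest gMDSC vehicle value in library 3, which stood apart from its group.

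Between the populations these lists split, beside 13.6% of all genes higher and 8.08% lower with vehicle. Of the glutathione genes 4 were higher in gMDSC with vehicle and 7 lower of 18, led by Ggt5 (2.12 ± 0.28, adjusted p = 0.000132), Glrx (1.04 ± 0.21, adjusted p = 0.00297), Gstt1 (-3.12 ± 0.59, adjusted p = 0.00196) and Gstm1 (-2.54 ± 0.52, adjusted p = 0.00363). Of the thioredoxin and peroxide genes 4 were higher and 2 lower of 18, led by Txnip, a thioredoxin inhibitor (2.93 ± 0.25, adjusted p = 3.92e-06), Msrb1 (2.30 ± 0.31, adjusted p = 0.000144), Sesn2 (1.54 ± 0.27, adjusted p = 0.00132) and Txn2 (-0.66 ± 0.17, adjusted p = 0.0118). NADPH genes gave 1 higher, Taldo1 (0.96 ± 0.22, adjusted p = 0.00734), and 2 lower of 8, Idh1 (-0.79 ± 0.14, adjusted p = 0.00119) and Mthfd2 (-0.78 ± 0.21, adjusted p = 0.0164). Detoxification genes gave Aldh2 higher (0.54 ± 0.14, adjusted p = 0.0146) and Blvra (-0.88 ± 0.17, adjusted p = 0.00208), which reduces the biliverdin that haem oxygenase makes, and Akr1a1 (-0.48 ± 0.13, adjusted p = 0.0192) lower of 13. Under CBPi the counts were 4 higher and 7 lower of 19 for glutathione, 5 and 6 of 19 for thioredoxin and peroxide, 2 and 5 of 8 for NADPH and 0 and 6 of 13 for detoxification genes, beside 20.1% of all genes higher and 19.1% lower. The smallest adjusted p in each of these lists belonged to Mgst1 (1.45 ± 0.16), Txnip (2.85 ± 0.17), Mthfd2 (-1.38 ± 0.14) and Akr1a1 (-0.77 ± 0.12), at most 0.000269.

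Heat-shock genes and cell markers moved beside Hmox1 in gMDSC. Of 11 immediate-early and heat-shock genes tested 7 rose under CBPi, against 4.18% of all genes, led by Hspa1b (4.03 ± 0.34), Hspa1a, Hsp90aa1 (2.16 ± 0.35) and Jun (1.63 ± 0.29), with adjusted p up to 0.00449 for these. In mMDSC 7 of 12 rose, against 3.02% of all genes, led by Dnajb1 (0.86 ± 0.11), Egr1 (1.55 ± 0.24), Jun (0.98 ± 0.18) and Ier2 (0.75 ± 0.15), with adjusted p up to 0.00764 for these. Hspa1a, an inducible HSP70 gene whose reads can be shared with Hspa1b, had 1370, 796, 595, 581 and 318 CPM in gMDSC CBPi libraries 6 to 10, against 47.1, 52.5, 47.4, 30.8 and 42.4 CPM in vehicle libraries 1 to 5 (log2 4.07 ± 0.35, adjusted p = 2.23e-05). Libraries 6 and 7 were the highest of the CBPi group and library 10 the lowest for both Hspa1a and Hmox1. In mMDSC, where Hmox1 did not pass, Hspa1a was at 60.6 to 81.0 CPM under CBPi and 33.9 to 109 CPM with vehicle. The difference between the Hspa1a responses was 3.96 ± 0.46 (adjusted p = 0.000260). The 12 genes summed to 24900 to 52400 CPM in gMDSC under CBPi and 19400 to 27500 CPM with vehicle.

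The 13 macrophage markers summed to 17100 to 33000 CPM in gMDSC under CBPi and 34700 to 77500 CPM with vehicle, and 4 of the 13 fell and none rose, against 9.71% of all genes called. In mMDSC they summed to 20200 to 25200 CPM under CBPi and 24100 to 34200 CPM with vehicle, and 6 of the 13 fell and 1 rose, against 8.56%. The 12 neutrophil markers gave none higher and 1 lower in gMDSC, close to the 9.71% of all genes called. Cxcr2 (-0.76 ± 0.20, adjusted p = 0.0314) passed. Ly6g (-2.37 ± 0.70, adjusted p = 0.0502) and S100a9 (-1.38 ± 0.45, adjusted p = 0.0719) lay near the threshold. The median of the list was -0.34, and only Mmp9, Il1r2 and Mmp8 had positive point estimates. Of the 12 monocyte markers 2 rose and 4 fell in gMDSC, against 4.18% and 5.52% of all genes. F13a1 (log2 3.36 ± 0.52, adjusted p = 0.00203) and Vcan (3.51 ± 0.78, adjusted p = 0.0144) rose. Ccr2 (-2.64 ± 0.29, adjusted p = 0.000195), Ly6c2 (-1.41 ± 0.31), Ly6c1 (-1.37 ± 0.32) and Cx3cr1 (-0.60 ± 0.17) fell, with adjusted p up to 0.0385. The sums overlapped at 3970 to 4470 CPM under CBPi and 3290 to 5560 CPM with vehicle. In mMDSC none rose and the same 4 fell, against 3.02% and 5.54% of all genes. They were at -1.73 ± 0.13, -1.24 ± 0.18, -1.27 ± 0.21 and -0.74 ± 0.13, with adjusted p up to 0.00398. Ly6c1 and Ly6c2 are genes of the Ly6C gate. The 9 dendritic cell markers summed in gMDSC to 241 to 353 CPM under CBPi and 453 to 656 CPM with vehicle, without overlap. Itgax made up most of these sums, at 209 to 322 CPM and 430 to 629 CPM. Of 6 tested, Itgax (-0.95 ± 0.18, adjusted p = 0.00618) and Batf3 (-1.96 ± 0.35, adjusted p = 0.00449) fell, against 9.71% of all genes called. Ccr7 rose (2.71 ± 0.80, adjusted p = 0.0491). The mMDSC sums did not overlap either, at 201 to 266 CPM under CBPi and 357 to 544 CPM with vehicle. In gMDSC the 13 markers of stroma, endothelium and epithelium gave none higher and 2 lower of 10 tested, against 9.71% of all genes called. The keratin genes Krt18 (-4.44 ± 0.57, adjusted p = 0.000542) and Krt8 (-2.24 ± 0.59, adjusted p = 0.032) fell. The epithelial genes Epcam (-0.85 ± 0.90, adjusted p = 0.595) and Cdh1 (0.49 ± 0.44, adjusted p = 0.518) did not pass. Sums of the 13 were 171 to 434 CPM under CBPi and 200 to 536 CPM with vehicle. These marker genes were named after their values were seen. The 10 lymphocyte and NK cell markers summed to 2.26 to 7.86 CPM under CBPi and 7.57 to 21.2 CPM with vehicle. Of the erythroid markers, the globin genes Hba-a1, Hba-a2, Hbb-bs and Hbb-bt were at most 3.85 CPM in any library. Pf4, a platelet marker of the same list, also named after its values were seen, rose in mMDSC (1.84 ± 0.31, adjusted p = 0.00261). It was at 80.1 to 260 CPM under CBPi and 24.3 to 49.4 CPM with vehicle there. That was 1 of 3 tested, against 3.02% of all genes, and Ppbp and Itga2b did not pass. In gMDSC Pf4 was at 0.33 ± 0.28 (adjusted p = 0.494). The part of the heat-shock genes and of these markers in the Hmox1 result was not tested.

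Over all 20 libraries, the genes whose log2 CPM followed Osgin1 most closely among the 8491 that averaged 10 CPM or more in any group were Ppp1r3b (Pearson r = 0.991), Adipor1 (0.990) and Hcar2 (0.989). For Hmox1 they were Ldha (0.941), Bsg (0.937) and Eno1b (0.906), the last of which may share reads with Eno1. These coefficients describe 20 libraries that share population and treatment. Within groups, after taking out the group means, Hmox1 followed Osgin1 with r = 0.72, Ftl1 with 0.62 and Fth1 with 0.55. With Slc7a11 r was 0.45, with Gclm 0.42, with Txnrd1 0.05 and with Gclc -0.46.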

How the data were processed

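Each of the 20 libraries had 1 deposited file listing, for every gene, a read count, a gene width and RPKM. The counts are raw and whole, as deposited by the authors. The RPKM values are also the authors' own, and served here only to order levels between genes. Depth, taken as the summed counts, was 12372630 to 26635889 counts. Widths were multiples of 3 in 80.0% of genes, so most are coding lengths. GSNAP and the build GRCm38 are named in the submitters' processing notes. How reads were assigned to genes and strands was not stated in the labels, so reads of overlapping or antisense genes cannot be told apart. Symbols, coordinates and promoters came from RefSeq tables of GRCm38.p6, in which 21647 IDs had a symbol.

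The main test was glmQLFit and glmQLFTest of edgeR (version 4.0.16, R 4.3.3) with TMM scaling, after filterByExpr with a count minimum of 10 and a total minimum of 15. It was fitted to the 10 libraries of a comparison, or to all 20 for the difference of responses. Benjamini-Hochberg adjustment ran over all genes tested, with a threshold of 0.05, and the SE is the size of the log2 fold change divided by the root of F. CPM were scaled over all 20 libraries. Alternatives were RLE scaling, no scaling factor, DESeq2 1.42.0, limma-voom 3.58.1, no filter, 1 fit over 20 libraries, a replicate block, each library left out in turn and 2 pairs of libraries left out. On simulated counts the test estimated changes close to those set and passed many of the larger ones, but missed most of the smaller ones in gMDSC and in the difference of responses, so a change that did not pass is not shown to be absent.

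The genes named were all 10 members, 8 regulator and iron genes, and up to 4 passing genes with the smallest adjusted p per list and comparison. Steap4 in mMDSC was named beyond that limit, after its values were seen. The members and lists were chosen with earlier results of these data known. Libraries are not stated to come from separate mice, so p-values measure the spread between these samples, part of which may be technical. Libraries with the same number in gMDSC and mMDSC were not treated as pairs.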

Additional observations from a re-analysis of the deposited data

Results flagged for a closer look

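Of 40 groups of a member's CPM in 5 libraries, 2 held a library far from the others. The rule would flag about 1 in 20 independent groups by chance. These groups share libraries, so their count cannot be set against that rate. In gMDSC with vehicle, library 3 had 330 CPM of Hmox1, with 215 CPM in the next library, and 52.1 CPM of Gclm, with 33.3 CPM in the next library. The same library had the lowest mean correlation with its group, 0.858, and the highest neutrophil marker sum of its group, 43800 CPM. It also had the highest macrophage marker sum, 77500 CPM, of which Apoe was 54500 CPM. Apoe, C1qa, C1qb, C1qc, Ms4a7, Cd68, Trem2 and Gpnmb were at their highest of the group there, and Adgre1, Vcam1, Mertk and Spic at their lowest. The part of these in the 2 values was not tested. Without it the change of Hmox1 under CBPi in gMDSC was 2.03 (adjusted p = 0.000597).

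The response of Hmox1 to CBPi differed between gMDSC and mMDSC by 1.56 on the log2 scale in the interaction test (adjusted p = 0.0443 by edgeR). All 5 gMDSC CBPi libraries, at 461 to 1370 CPM, were above the 5 gMDSC vehicle libraries, at 192 to 330 CPM. In mMDSC the CBPi libraries, at 275 to 524 CPM, overlapped the vehicle libraries, at 239 to 391 CPM. Over the 28 alternatives the adjusted p ran up to 0.197.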

How the results depend on the processing

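Over the alternatives, the members' results kept their direction and their side of the threshold in 163 cases in gMDSC under CBPi, 124 in mMDSC under CBPi, 234 in the difference of responses, 157 between populations under CBPi and 163 with vehicle; calls were lost in 0, 11, 14, 8 and 11 cases, gained in 7, 4, 1, 2 and 4, and the sign turned in 9, 5, 31, 13 and 2. No value whose sign turned had passed the threshold, and the cause of the changes was not tested.

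Members called in gMDSC under CBPi were 3 with DESeq2, 3 with 1 fit over 20 libraries and 2 without vehicle libraries 3 and 5, and 1 to 2 with 1 library left out. In mMDSC they were 3 with DESeq2, 0 with limma-voom, no filter or 1 fit over 20 libraries, and 0 to 1 with 1 library left out. In the difference they were 2 with DESeq2, 0 with limma-voom, 0 without gMDSC CBPi libraries 6 and 7, and 0 to 1 with 1 library left out. Genes called in gMDSC were 1926 with DESeq2, 2182 with 1 fit, 306 without CBPi libraries 6 and 7, and 587 (without CBPi library 7) to 1394 with 1 library left out, with 708 without CBPi library 6. In mMDSC they were 1647 with DESeq2 and 639 with 1 fit. In the difference they were 277 with DESeq2, 36 without gMDSC CBPi libraries 6 and 7, and 34 (without gMDSC CBPi library 7) to 111 with 1 library left out, with 57 without gMDSC CBPi library 6, 47 without gMDSC vehicle library 4, 53 without mMDSC CBPi library 10 and 58 without mMDSC vehicle library 5.

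With the replicate block, for libraries that share only a number, 52 genes were called in the difference, 3 members were called between populations with vehicle (Gclm and Txnrd1 were lost), Gclc was 0.04 in the difference and Hmox1 1.53 (adjusted p = 0.00399). The deviations of same-numbered gMDSC and mMDSC libraries from their group means correlated at -0.15 to 0.41 over 8491 genes, over 0.1 in 4 of 10 pairs, and 3 pairs correlated best with their own number.

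Signs that turned, on the log2 scale, were these. In gMDSC Fth1 was 0.12 without vehicle libraries 3 and 5 and Ftl1 was -0.21 without CBPi libraries 6 and 7. In mMDSC Keap1 was 0.02 with no scaling factor. In the difference, limma-voom gave 0.00 for Gclc and -0.03 for Slc7a11, no scaling factor gave -0.05 for Slc7a11 and -0.05 for Maff, leaving out gMDSC vehicle libraries 3 and 5 gave -0.18 for Slc7a11, -0.02 for Srxn1, 0.11 for Ftl1 and 0.00 for Keap1, and leaving out gMDSC CBPi libraries 6 and 7 gave 0.03 for Gclc, -0.45 for Slc7a11 and -0.21 for Maff. Between populations with vehicle, no scaling factor gave -0.22 for Gclc and -0.26 for Mafg, and leaving out vehicle libraries 3 and 5 gave -0.14 for Mafg. Under CBPi, Txnrd1 was 0.02 with RLE scaling and 0.02 with DESeq2, and Gclc was -0.35 with no scaling factor.

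With 1 library left out, mMDSC gave -0.09 to 0.20 for Ftl1 and -0.05 to 0.17 for Txnrd1, and gMDSC gave -0.13 to 0.28 for Ftl1 and -0.23 to 0.22 for Fth1. The difference gave -0.22 to 0.10 for Gclc, -0.23 to 0.20 for Ftl1, -0.38 to 0.12 for Slc40a1, -0.18 to 0.04 for Keap1, -0.16 to 0.29 for Slc7a11 and -0.19 to 0.18 for Maff. Between populations with vehicle the ranges were -0.03 to 0.29 for Gclc and -0.15 to 0.23 for Mafg. Under CBPi they were -0.15 to 0.07 for Gclm, -0.22 to 0.02 for Bach1, -0.10 to 0.04 for Txnrd1, -0.24 to 0.02 for Srxn1 and -0.86 to 0.43 for Nqo1. The settings with no scaling factor and with 2 libraries left out were chosen after seeing the data. Depth limits Nqo1, at 0 to 43 counts a library, and Srxn1, at 16 to 296.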
